A study of Mus musculus with 8 samples.

Results

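The Kruppel-like factors (KLFs) described here are 10 transcription factor genes, Klf2, Klf3, Klf4, Klf6, Klf7, Klf10, Klf12, Klf13, Klf15 and Klf16, which were chosen by symbol and are 10 of the 24346 genes in the expression table. The table holds 17 Klf genes, and the 7 that were not chosen (Klf1, Klf5, Klf8, Klf9, Klf11, Klf14 and Klf17) are given only where a comparison needs them. Induced immature oligodendrocytes (iOLs) of both genotypes, 4 Med23+/+ and 4 Med23-/- cultures, were profiled by RNA-seq. Med23 is a subunit of the Mediator complex, which links transcription factors to RNA polymerase II, and the comparison asks how its loss alters transcription at the onset of oligodendrocyte differentiation. Oligodendrocyte precursor cells (OPCs) were taken from mouse brains at P7, depleted of endothelial cells and microglia by panning, and selected on plates coated with an antibody to CD140a (PDGFRα). They were grown under 10% CO2 in medium with PDGF-AA (10 ng/ml) and NT-3 (1 ng/ml), and then differentiated for 1 day with 15 nM T3 (the active thyroid hormone) and 10 ng/ml CNTF (a cytokine that signals through gp130). Both genotypes received this treatment, so no library shows the undifferentiated state. The labels call the genotypes WT and MED23KO. The study defines the knockout mice as Med23 fl/fl with Cre expressed from Olig1 and their control littermates as Med23 fl/fl, so by this definition both carried the floxed allele, and Med23+/+ is its name for OPCs of control mice. The sources do not say whether the 4 cultures of a genotype came from separate animals, so the p-values measure only the spread between these cultures.

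KLFs share 3 zinc fingers at the carboxyl end that bind GC-rich DNA, the GC box (also bound by Sp1) and the CACCC box, and they differ in the part of the protein that recruits cofactors. One branch (Klf3, Klf8 and Klf12) carries a motif that binds the corepressor CtBP, another (Klf1, Klf2, Klf4, Klf5, Klf6 and Klf7) mostly activates transcription through acetyltransferases, and the Sin3-binding branch (Klf9, Klf10, Klf11, Klf13, Klf14 and Klf16) represses through histone deacetylases. In oligodendrocytes, Klf9 is a known thyroid hormone response gene, Klf13 is its close relative, and Klf6 is known to act downstream of gp130 in myelination.

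The sequence before the RefSeq start of 3 of these genes is printed here. Klf3 is the member with the largest rise and the most GC boxes. Klf7 is the member with the lowest log2 fold change, which did not pass the test. Klf12 rose with neither of the letter strings searched in the window examined, and was chosen after its values were seen. Capitals mark the letters GGGCGG (the GC box core) and CCACCC (the CACCC box), searched on both strands, so that a match on the other strand reads CCGCCC or GGGTGG. Only the bases outside exons annotated in GENCODE vM21 are shown. All 3 stretches are from RefSeq on GRCm38.p6, on the strand of the gene and 5′ to 3′.
Klf3, chr5:64803271-64803387, plus strand: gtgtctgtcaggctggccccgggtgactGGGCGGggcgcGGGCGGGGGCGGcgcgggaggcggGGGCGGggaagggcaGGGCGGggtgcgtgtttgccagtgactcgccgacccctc
Klf7, chr1:64121492-64121639, minus strand: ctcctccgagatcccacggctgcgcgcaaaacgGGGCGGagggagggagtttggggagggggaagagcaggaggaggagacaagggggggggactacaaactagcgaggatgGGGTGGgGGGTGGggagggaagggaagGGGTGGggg
Klf12, chr14:100149797-100150046, minus strand: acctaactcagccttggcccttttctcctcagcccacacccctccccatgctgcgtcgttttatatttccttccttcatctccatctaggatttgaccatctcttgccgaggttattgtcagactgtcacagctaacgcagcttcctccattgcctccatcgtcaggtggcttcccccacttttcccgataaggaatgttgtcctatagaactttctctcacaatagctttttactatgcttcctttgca
The Klf3 stretch held 5 of the 6 GC boxes found in the 250 bases before its start, and the pair at -211 and -205 adjoined each other. Klf7 held 1 GC box and 3 CACCC boxes, the latter all on the other strand. The Klf12 window held neither of these letter strings. It does hold the letters CACCC after an A, which the search for CCACCC does not count. The RefSeq start of all 3 genes is inside the longer GENCODE gene, and the Klf7 and Klf12 stretches lie within it as well. On the minus strand, the GENCODE gene starts at 64122282 for Klf7 and at 100284679 for Klf12. The Klf12 stretch, which ends at 100150046, thus lies far inside its gene. The bases before the GENCODE start of Klf12 were not searched.

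Of the 10 genes, 8 had a promoter in the RefSeq table. A GC box core was found in 7 of these 8 upstream windows (all but that of Klf12), against 32.74% of all 32851 promoters. A CACCC box was found in 4 (Klf2, Klf3, Klf7 and Klf13), against 28.08%. The Klf12 window lies far inside the GENCODE gene, so its lack of a GC box holds for this RefSeq start only. At least 6 GC boxes, the number before Klf3, were present in 0.8858% of promoters. Klf4 had 4, a number reached or passed by 4.091% of promoters, and its matches at -217 and -212 overlapped by a base. Klf13 had 3 GC boxes and Klf2 had 2, while Klf6 and Klf15 had 1 each. The GC content of the 8 windows ran from 48.0% (Klf12) to 78.4% (Klf3) around a median of 52.4% for all promoters, and 7 of the 8 were above that median. These are matches of letters, and binding was not measured.

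**Figure D1:**
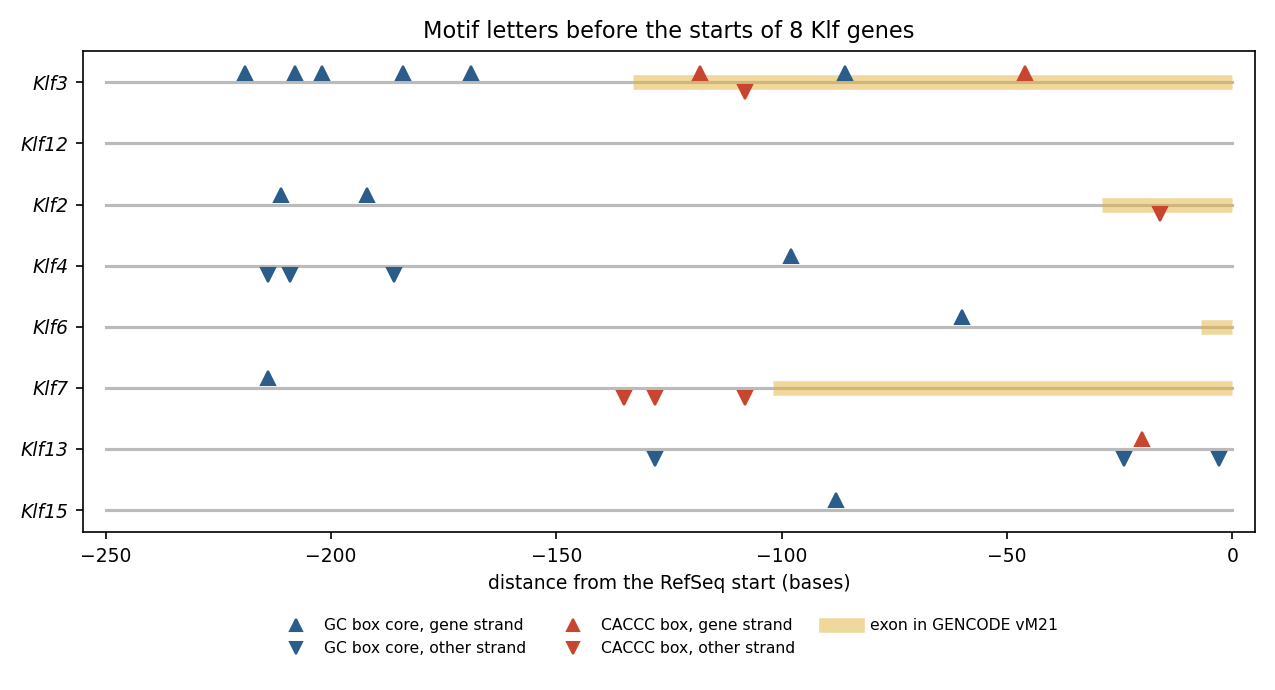
Positions of GC box cores (blue) and CACCC boxes (red) in the 250 bases before the RefSeq start of 8 Klf genes, with distance from the start in bases on the x axis; triangles pointing up are on the strand of the gene, triangles pointing down on the other strand, and yellow bars are annotated exon. Klf3 holds 6 GC boxes and Klf12 holds neither of the letter strings searched, GGGCGG and CCACCC.

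Values are FPKM, fragments scaled by transcript length and by the mapped fragments of the library, as deposited for each library. Genes whose mean FPKM was 1 or more were compared on log2(FPKM + 1) with limma, with Benjamini-Hochberg adjustment over all 12328 genes tested. Of the 10 Klf genes, 8 passed this minimum and Klf2 and Klf4 did not. Klf3, Klf6 and Klf12 were higher in Med23-/- iOLs with an adjusted p under 0.05, each with all 4 Med23-/- libraries above all 4 Med23+/+ libraries, and 0 of the 8 were lower. Among all genes tested, 15.9% were higher and 14.1% lower by this rule, and 16.3% had every Med23-/- library above every Med23+/+ library against 15.3% with every one below. The study's methods set a fold change limit of 2 on the expression level. Here a limit of 2 was added on the (FPKM + 1) scale, which understates the change of low genes. With it 0 of the 8 genes were called in either direction, against 2.98% higher and 1.75% lower of all genes. The log2 fold change was above 0 for 5 and below 0 for 3 of the 8 genes, with a median of 0.20 against -0.01 for all genes tested. With all 8 libraries, the 3 genes that passed the test were 2 of the CtBP-binding branch and 1 of the activating branch, and the 3 tested genes of the Sin3-binding branch and Klf15 did not pass it.

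**Figure D2:**
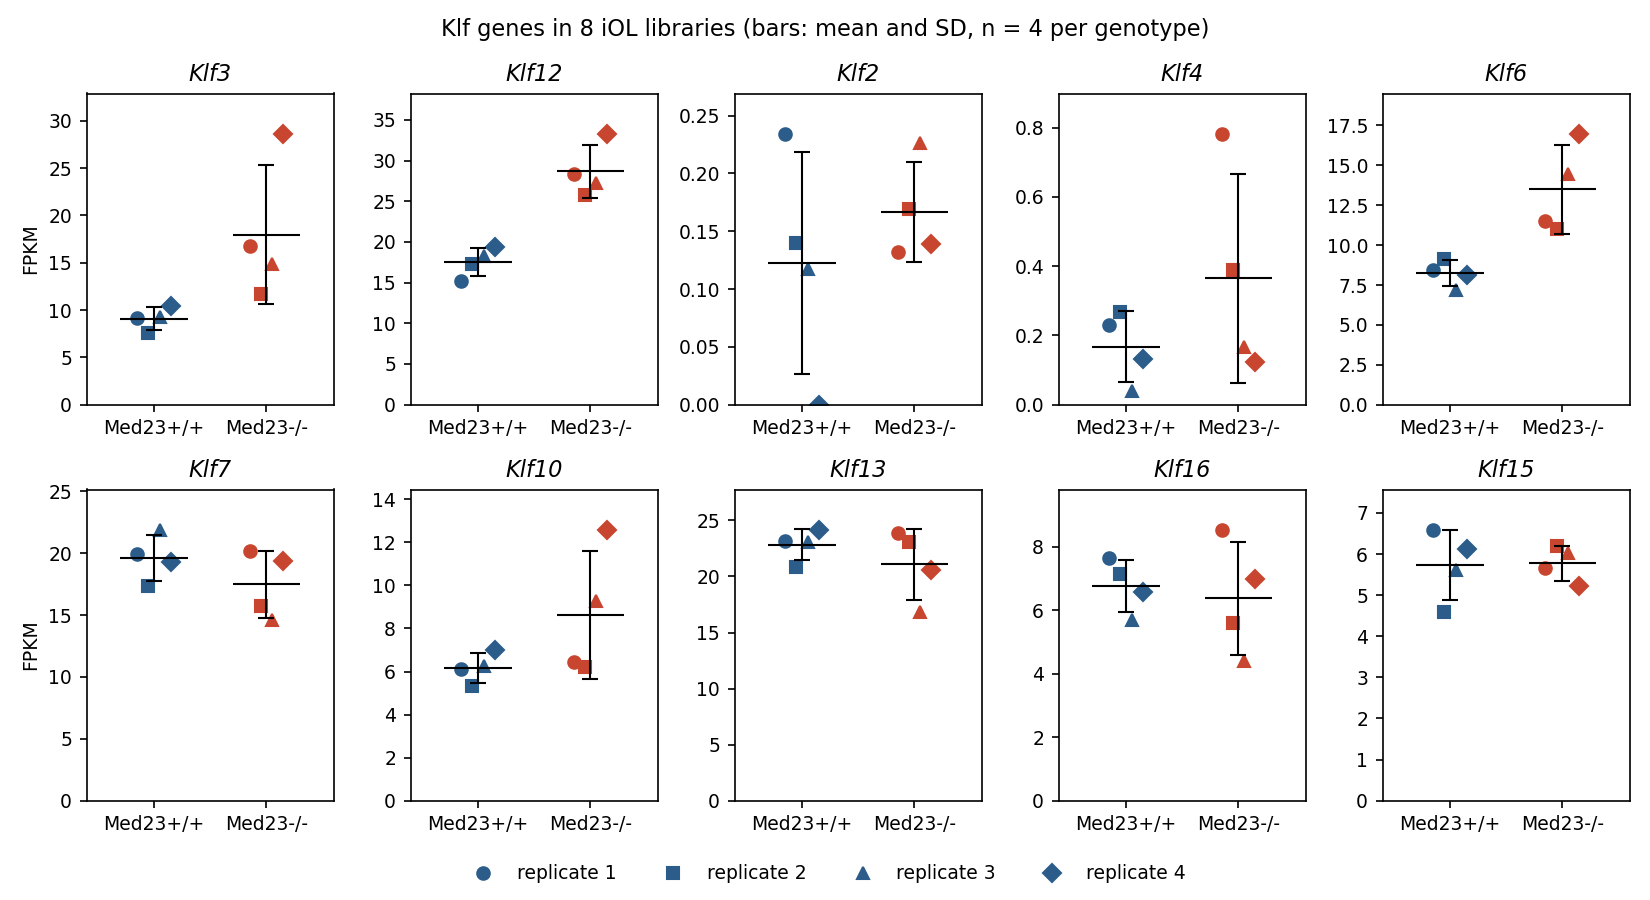
FPKM (y axis, from 0, with a scale of its own in each panel) of the 10 Klf genes in 4 Med23+/+ (blue) and 4 Med23-/- (red) libraries; each symbol is a library, with replicates 1 to 4 as circle, square, triangle and diamond, and black bars give the mean and SD. For Klf3, Klf12 and Klf6 every red symbol lies above every blue one, and Klf2 and Klf4 stay under 1 FPKM in all libraries.

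As a check of the labels, Med23 fell from 12.5 ± 0.225 to 8.26 ± 0.247 FPKM (SD, n = 4), a log2 fold change of -0.55 (SE 0.07, adjusted p = 0.000353 by limma with Benjamini-Hochberg adjustment). Transcript thus remained, and FPKM over the whole gene does not show whether the floxed exon was lost. Scaling factors between libraries ran from 0.977 to 1.02, and the number of genes above 0 ran from 15941 to 16363 in Med23+/+ and from 16408 to 16469 in Med23-/- libraries. The second principal component, 15.6% of the variance, separated replicates 1 and 2 (scores 7.9 to 28.7) from replicates 3 and 4 (-20.8 to -12.4) in both genotypes, for which the labels name no batch, so the members that moved are also given within each of these sets. Oligodendrocyte lineage markers were abundant, with summed levels of 2618 to 2910 FPKM in Med23+/+ and 1813 to 2357 in Med23-/- libraries, and 8 of the 12 were lower and 2 (Pdgfra and Cspg4, which mark OPCs) were higher. Markers listed for other cell types were present at lower levels and in part moved with genotype. The 8 neuron markers summed to 33.4 to 53.3 FPKM in Med23+/+ and 68.3 to 174.1 in Med23-/- libraries, and 6 of the 7 tested were higher. The 8 astrocyte markers summed to 127.9 to 182.7 and 94.2 to 147.4 FPKM, with 3 lower and 1 higher (0 higher without Med23+/+ replicate 3 or 4 or without Med23-/- replicate 3). None of the markers of these 3 lists was at 0 in all libraries. The part of any of these shifts in the Klf values was not tested, and in bulk RNA fewer cells of a type and less RNA per cell cannot be told apart. Bulk RNA also does not show which cells, those of the oligodendrocyte lineage included, the neuron and astrocyte marker transcripts came from.

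Klf3 recruits CtBP to repress its targets, among them Klf8, and is known from erythroid cells and fat. The gene lies at chr5:64803388-64832901 (plus strand, GRCm38). Its level in Med23+/+ replicates 1 to 4 was 9.13, 7.57, 9.27 and 10.4 FPKM, and in Med23-/- replicates 1 to 4 it was 16.8, 11.7, 14.9 and 28.6 FPKM. All 4 Med23-/- libraries were above all Med23+/+ libraries, and Med23-/- replicate 4 was far above the other Med23-/- libraries. The mean rose from 9.10 ± 1.18 to 18.0 ± 7.37 FPKM (SD, n = 4), and the log2 fold change was 0.85 (SE 0.22, 95% interval 0.35 to 1.34, adjusted p = 0.018 by limma with Benjamini-Hochberg adjustment). The coefficient of variation was 12.9% among Med23+/+ and 41.0% among Med23-/- libraries. Without Med23-/- replicate 4 the log2 fold change was 0.61, and without Med23+/+ replicate 2 the call was lost (0.77, adjusted p = 0.051). Within replicates 1 and 2 it was 0.69 (adjusted p = 0.066) and within replicates 3 and 4 it was 1.00 (adjusted p = 0.107), both on 2 libraries a genotype. Of the exonic bases of Klf3, 404 of 11243 (3.59%) are shared with Gm20033 on the other strand, and whether the counting used strand is not given in the sources used here.

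Klf12 (AP-2rep) is a CtBP-dependent repressor named for its action on Tfap2a. It is the longest of these genes, at chr14:99870632-100284679 (minus strand). Its levels were 15.2, 17.3, 18.3 and 19.3 FPKM in Med23+/+ replicates 1 to 4 and 28.3, 25.8, 27.3 and 33.3 FPKM in Med23-/- replicates 1 to 4. The groups were well apart, and both varied little (coefficients of variation 10.1% and 11.3%). The mean rose from 17.5 ± 1.76 to 28.7 ± 3.23 FPKM (SD, n = 4), with a log2 fold change of 0.68 (SE 0.10, 95% interval 0.45 to 0.90, adjusted p = 0.00106 by limma). Klf12 had the smallest adjusted p of the 8 genes tested, and it was called within replicates 1 and 2 (0.70, adjusted p = 0.0172) and within replicates 3 and 4 (0.65, adjusted p = 0.0479) as well as in all 8 fits that left out a library.

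Klf8, the remaining gene of the CtBP-binding branch and not one of the 10, went the other way. It was 3.995, 4.96, 4.85 and 4.53 FPKM in Med23+/+ and 1.95, 2.20, 2.28 and 2.09 FPKM in Med23-/- libraries, with no overlap, and its log2 fold change was -0.83 (SE 0.10, adjusted p = 0.000281 by limma). The ratio of its mean FPKM, Med23-/- over Med23+/+, was 0.465, a larger change than on the (FPKM + 1) scale, where it stayed inside a fold change of 2. In this branch Klf3 and Klf12 were therefore higher and Klf8 lower.

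Klf6 is induced by growth factors and injury in many cells and activates Cdkn1a. The gene lies at chr13:5861482-5870394 (plus strand). It was 8.45, 9.16, 7.21 and 8.14 FPKM in Med23+/+ replicates 1 to 4 and 11.5, 11.04, 14.5 and 17.0 FPKM in Med23-/- replicates 1 to 4. All Med23-/- libraries were higher, and replicates 3 and 4 were the highest. The mean rose from 8.24 ± 0.807 to 13.5 ± 2.77 FPKM (SD, n = 4), with a log2 fold change of 0.63 (SE 0.13, 95% interval 0.34 to 0.93, adjusted p = 0.00643 by limma). The change was 0.32 within replicates 1 and 2 (adjusted p = 0.131) and 0.94 within replicates 3 and 4 (adjusted p = 0.0258), and the difference between these 2 values was not tested. Klf6 was called in all 8 fits that left out a library, with log2 fold changes of 0.52 to 0.72.

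Klf7, which supports axon growth in neurons, was the most abundant gene of the activating branch and did not pass the test. The gene lies at chr1:64029447-64122282 (minus strand). It was 20.0, 17.4, 21.9 and 19.3 FPKM in Med23+/+ replicates 1 to 4 and 20.2, 15.7, 14.6 and 19.4 FPKM in Med23-/- replicates 1 to 4. The groups overlapped, with Med23-/- replicates 2 and 3 below all the others. The log2 fold change was -0.17 (SE 0.12, 95% interval -0.42 to 0.09, adjusted p = 0.314 by limma), so that a ratio between 0.745 and 1.07 on the (FPKM + 1) scale is inside the interval. Of its exonic bases, 3196 of 8131 (39.3%) are shared with Gm26649 on the other strand, and without knowledge of strand in the counting, reads from the shared bases cannot be assigned to Klf7 alone.

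Klf2 and Klf4, the flow-responsive factors of endothelium, of which Klf4 is also a reprogramming factor, were near the lower end of the measured range. Klf2 (chr8:72319033-72321656) was 0.234, 0.140, 0.117 and 0 FPKM in Med23+/+ and 0.132, 0.169, 0.227 and 0.139 FPKM in Med23-/- libraries. Klf4 (chr4:55527143-55532466) was 0.229, 0.269, 0.0397 and 0.133 FPKM in Med23+/+ and 0.782, 0.389, 0.166 and 0.122 FPKM in Med23-/- libraries. The groups overlapped for both genes, and the highest Klf4 values were in Med23-/- replicates 1 and 2. The two-sided exact permutation test on log2(FPKM + 1), whose smallest possible p with 4 libraries against 4 is 0.0286, gave p = 0.457 for Klf2 and p = 0.314 for Klf4. Endothelial cells had been depleted, and the summed level of the 10 endothelial markers was 0.544 to 1.24 FPKM in Med23+/+ and 1.24 to 3.22 FPKM in Med23-/- libraries, with Tie1 and Ly6c1 listed at 0 in all 8. Only 1 of these markers, Kdr, passed the minimum level, and it was higher in Med23-/-, a call lost without Med23+/+ replicate 2, 3 or 4 or without Med23-/- replicate 3 or 4. The 10 microglia markers, with 0 passing the minimum, summed to 1.10 to 2.23 and 1.76 to 2.66 FPKM, and the 7 mural cell markers, with 0 called of 2 tested (1 lower without Med23-/- replicate 3), summed to 3.01 to 3.94 and 1.87 to 5.91 FPKM. No marker of these 2 lists was at 0 in all libraries. The part of such cells in the Klf2 and Klf4 values was not tested.

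Klf10 (TIEG1), a gene induced by TGF-β, had a coefficient of variation of 34.4% among the Med23-/- libraries, the largest of the 3 tested Sin3-binding members, and 11.1% among the Med23+/+ libraries. The gene lies at chr15:38291463-38300706 (minus strand). It was 6.10, 5.31, 6.26 and 6.98 FPKM in Med23+/+ replicates 1 to 4 and 6.46, 6.22, 9.29 and 12.6 FPKM in Med23-/- replicates 1 to 4. Replicates 3 and 4 of Med23-/- were above all Med23+/+ libraries, while replicates 1 and 2 lay within their range. The log2 fold change of 0.38 (SE 0.19, 95% interval -0.04 to 0.81) had an adjusted p of 0.157 by limma, and it was 0.13 within replicates 1 and 2 and 0.63 within replicates 3 and 4.

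Klf13 and Klf16, repressors of the same branch, did not pass the test. Klf13, at chr7:63886351-63938915 (minus strand), had the highest mean of the 10 genes in Med23+/+ iOLs. It was 23.2, 20.9, 23.1 and 24.1 FPKM in Med23+/+ and 23.9, 23.1, 16.8 and 20.5 FPKM in Med23-/- libraries. The groups overlapped, and the lowest values were in Med23-/- replicates 3 and 4. The log2 fold change was -0.12 (SE 0.11, 95% interval -0.36 to 0.13, adjusted p = 0.452 by limma), with 0.09 within replicates 1 and 2 and -0.33 within replicates 3 and 4. Klf16, at chr10:80567124-80577321 (minus strand), was 7.63, 7.14, 5.71 and 6.59 FPKM in Med23+/+ and 8.53, 5.60, 4.41 and 6.99 FPKM in Med23-/- libraries. Its highest and its lowest values were both in Med23-/- libraries, and the log2 fold change was -0.10 (SE 0.17, 95% interval -0.47 to 0.27, adjusted p = 0.696 by limma). Klf9 and Klf11, of the same branch and not among the 10, had log2 fold changes of -0.24 (adjusted p = 0.135) and 0.37 (adjusted p = 0.052), and without Med23+/+ replicate 4 1 of the 7 Klf genes outside the 10 was higher. Klf9 averaged 19.9 ± 1.19 and 16.8 ± 2.75 FPKM (SD, n = 4) in the Med23+/+ and Med23-/- libraries, which overlapped.

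Klf15, a glucocorticoid-induced regulator of amino acid and glucose metabolism that stands outside these branches, had nearly the same mean in both genotypes. The gene lies at chr6:90462576-90475238 (plus strand). It was 6.58, 4.59, 5.62 and 6.13 FPKM in Med23+/+ and 5.66, 6.20, 6.02 and 5.23 FPKM in Med23-/- libraries. The Med23-/- values lay inside the Med23+/+ range, and the mean was 5.73 ± 0.857 against 5.78 ± 0.425 FPKM (SD, n = 4). The log2 fold change was 0.02 (SE 0.11, adjusted p = 0.927 by limma), and its 95% interval of -0.23 to 0.26 corresponds to ratios of 0.854 to 1.199 on the (FPKM + 1) scale.

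**Figure D3:**
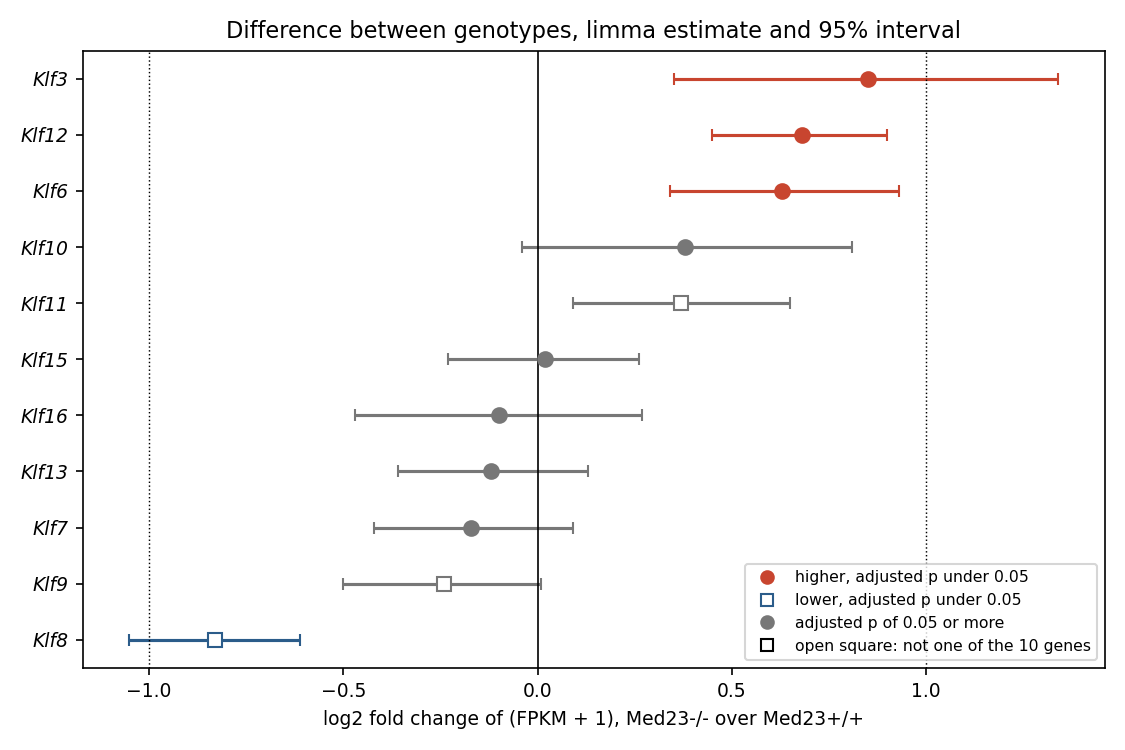
Log2 fold change of (FPKM + 1), Med23-/- over Med23+/+ (x axis), with its 95% interval from limma, for the 8 tested genes (filled circles) and for Klf8, Klf9 and Klf11 (open squares), 4 libraries a genotype; dotted lines mark a fold change of 2. The intervals of Klf3, Klf12 and Klf6 lie above 0, that of Klf8 lies below 0, and those of the other 7 tested Klf genes except Klf11 include 0.

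By level per transcript length, the 10 genes fell into 3 tiers in Med23+/+ iOLs. Klf13 (22.8 FPKM), Klf7 (19.6) and Klf12 (17.5) were the highest, followed by Klf3 (9.10), Klf6 (8.24), Klf16 (6.77), Klf10 (6.16) and Klf15 (5.73), with Klf4 (0.168) and Klf2 (0.123) last. Neighbours within a tier overlapped in their library ranges, and the 2 gaps between tiers did not. In Med23-/- iOLs Klf12 (28.7 FPKM) had the highest mean, followed by Klf13 (21.1), Klf3 (18.0), Klf7 (17.5), Klf6 (13.5), Klf10 (8.64), Klf16 (6.38) and Klf15 (5.78), and Klf4 (0.365) and Klf2 (0.167) were again last. Of the 9 neighbour pairs in that order 7 overlapped, and the exceptions were Klf12 against Klf13 and Klf15 against Klf4. Klf12 (25.8 to 33.3 FPKM) did overlap Klf3 (11.7 to 28.6 FPKM), which is not its neighbour. The summed level of the 10 genes was 96.7, 89.7, 97.5 and 101.2 FPKM in Med23+/+ and 122.2, 106.0, 108.2 and 143.8 FPKM in Med23-/- libraries, with the highest sum in Med23-/- replicate 4. Among the Med23-/- libraries, replicates 1 and 4 each held the highest value of 4 of the 10 genes.

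**Figure D4:**
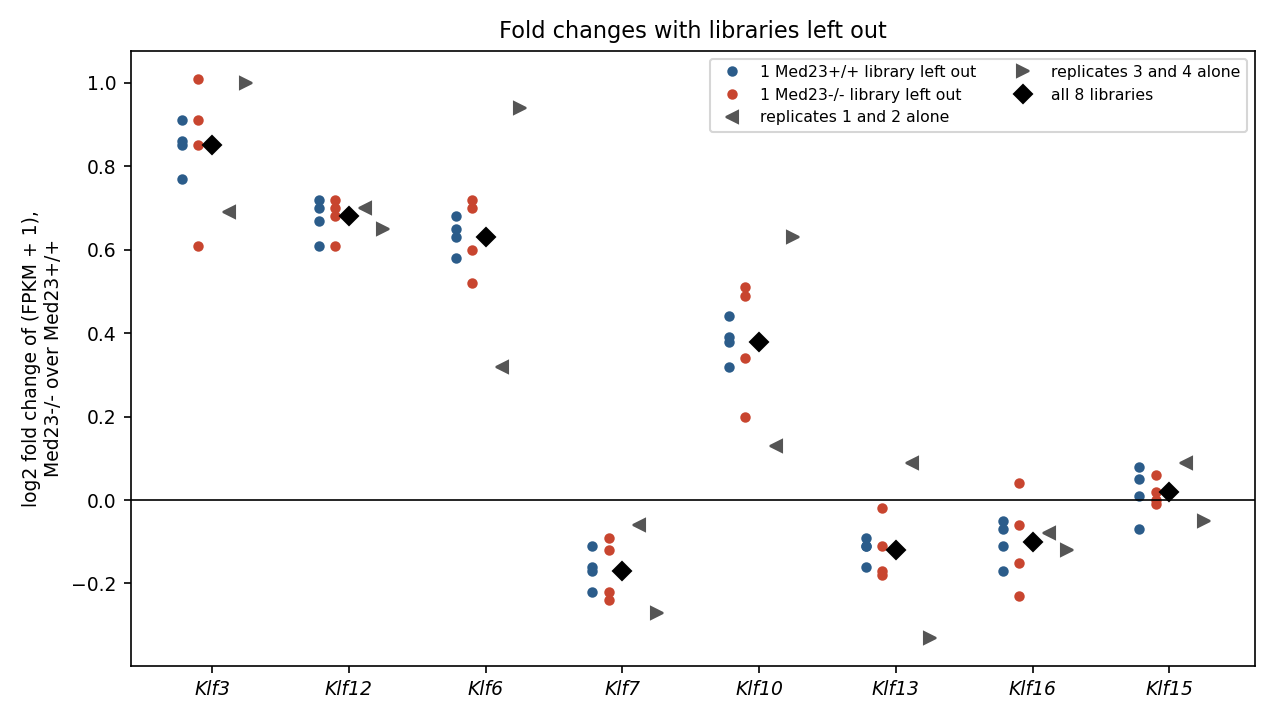
Log2 fold change of (FPKM + 1), Med23-/- over Med23+/+ (y axis), of the 8 tested Klf genes with all 8 libraries (black diamonds), with 1 library left out (blue and red dots) and within replicates 1 and 2 or 3 and 4 alone (grey triangles). Klf12 stays between 0.61 and 0.72 with a library left out, while Klf3 ranges from 0.61 to 1.01 and Klf10 from 0.20 to 0.51.

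The proteins that KLFs work with, that control them or that share their sites were taken from lists, described here by counts and read against the 15.9% of genes higher and 14.1% lower. Of the 9 Sp genes, which bind the same GC boxes, 7 were tested and 2 were higher, Sp5 (1.02 ± 0.534 to 3.01 ± 0.198 FPKM, log2 fold change 1.02) and Sp9 (0.852 ± 0.649 to 1.98 ± 0.274 FPKM, 0.74), with 0 lower. Leaving out Med23+/+ replicate 2, 3 or 4 or Med23-/- replicate 1, 3 or 4 left 1 of the 9 higher, and without Med23-/- replicate 4 there was 1 lower. Of 15 cofactors, 14 were tested. The deacetylase genes Hdac1 (log2 fold change -0.47) and Hdac2 (-0.32) and the acetyltransferase gene Kat2a (-0.35) were lower, and Fbxw7 (0.56), a ubiquitin ligase subunit, was higher. The call of Fbxw7 was lost without any 1 of the Med23+/+ libraries and without Med23-/- replicate 3 or 4, and 1 cofactor was lower in place of 3 without Med23+/+ replicate 3 or Med23-/- replicate 1. The CtBP genes, Ctbp1 and Ctbp2, were not called and are mentioned after their values were seen.

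Of 17 upstream regulators, 16 were tested, 5 were higher and 1 was lower. Foxo1, whose product induces Klf2 in T cells, rose from 1.04 ± 0.111 to 2.57 ± 0.359 FPKM (SD, n = 4), and Mef2c rose from 0.593 ± 0.135 to 1.69 ± 0.733 FPKM. Mapk7, the kinase ERK5 that acts on MEF2 factors upstream of Klf2 and Klf4, was also higher (log2 fold change 0.52), as were Foxo3 (0.67) and Stat3 (0.40), the latter a transducer of CNTF signals. Mapk7 and Foxo3 were named after their values were seen. Thra, the thyroid hormone receptor alpha gene, fell from 103.0 ± 12.7 to 77.5 ± 6.94 FPKM, a log2 fold change of -0.40 (adjusted p = 0.0177 by limma). Klf2 itself, the gene downstream of Foxo1, Mapk7 and Mef2c in other cells, stayed under 0.25 FPKM.

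Of 21 genes reported elsewhere as KLF targets, 12 were tested, 4 were higher and 5 lower, with a median log2 fold change of -0.18. Cdkn1a (p21), a target of several KLFs, rose from 10.9 ± 3.99 to 43.7 ± 7.30 FPKM (log2 fold change 1.96), and Tfap2a, known as a gene that Klf12 represses, rose from 1.81 ± 1.14 to 5.69 ± 1.05 FPKM (1.32). Klf8, known as a gene that Klf3 represses, was lower, as given above. L1cam, linked to Klf7 in neurons, fell from 8.33 ± 1.204 to 3.33 ± 0.756 FPKM (-1.12), while Gap43, linked to the same factor, was higher (0.74). The rest of those called were S1pr1 (0.90), higher, and Kpna1 (-0.45), Smad7 (-0.47) and Bcat2 (-0.39), lower. Gap43 and these 4 were named after their values were seen. The list moved in both directions, and 3 of 12 tested were not called. Leaving out Med23+/+ replicate 1, 3 or 4 or Med23-/- replicate 1 or 3 left 3 lower targets in place of 5.

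The immediate early genes, a class that responds within the first hours of a stimulus and in which Klf6 and Klf10 are often counted, had 12 of 16 tested, with 6 higher and 1 lower and a median log2 fold change of 0.54. Btg2 rose from 3.47 ± 0.750 to 18.5 ± 3.80 FPKM (log2 fold change 2.12) and Jun from 12.3 ± 1.70 to 48.1 ± 5.20 FPKM (1.88), both larger than any change of the 8 tested KLFs. Myc fell from 106.9 ± 3.45 to 55.8 ± 8.59 FPKM (-0.94), and the count of lower genes was 2 without Med23+/+ replicate 2 and 3 without Med23-/- replicate 4.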

How the data were processed

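RNA was sequenced from 8 iOL cultures, 4 a genotype, grouped by the labels. The authors used Cutadapt for trimming and Tophat2 for alignment to mm10, and ran cuffdiff with options that correct fragment bias and weight reads mapping to several places; versions and gene annotation are not given in the sources used here. The values used are FPKM per library, as deposited. The deposited columns of the authors' own comparison (group FPKM, log2 fold change, p-value, q-value and a yes or no call) were not used, and 0 library columns were left out. The depth and the counting error of low values are unknown without read counts.

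Genes averaging 1 FPKM or more were compared on log2(FPKM + 1) without further scaling, 4 against 4 and unpaired, with limma 3.58.1 in R 4.3.3 (lmFit, eBayes with a mean-variance trend) and Benjamini-Hochberg adjustment. Fold changes on this scale understate the change of low genes. Calls were made at an adjusted p under 0.05. For genes under the minimum a two-sided exact permutation test was run, with 70 possible arrangements. The script for limma was tested on simulated data. The design and its alternatives were written down with earlier results of these data known, and so were the members, the gene lists and the sets of replicates 1 and 2 and 3 and 4. The text names all 10 members, other Klf genes, and for each list its counts and up to 4 genes, the 2 largest and 2 smallest log2 fold changes among those called; genes outside this rule are marked as named after their values were seen. A planned comparison of protein zinc fingers was not run. Coordinates and exons are from GENCODE vM21 (GRCm38, the same assembly as mm10) and promoters from RefSeq (GRCm38.p6). Tables were made with pandas 2.3.3, numpy 2.4.6 and scipy 1.17.1 under Python 3.11.15, and plots with matplotlib 3.10.9.

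The alternatives were median-ratio scaling, quantile normalization, a pseudocount of 0.1, a minimum mean of 5 FPKM, testing every gene detected in 1 library or more, sample weights, no variance trend, the replicate number as a block, replicates 1 and 2 against 3 and 4 as a term, and leaving out each library. Chosen after seeing the data were replicates 1 and 2 alone, replicates 3 and 4 alone, and the level of Xist as a term.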

Additional observations from a re-analysis of the deposited data

Results flagged for a closer look

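Of the 28 groups of 4 libraries examined for a library standing apart (the 10 members, Klf8, Klf9, Klf11 and Med23 in each genotype), 1 was found. Klf9 in Med23+/+ replicate 2 was 18.1 FPKM, below the 20.3 to 20.7 FPKM of the other Med23+/+ libraries, and this gap was 0.851 of the range of the group. Chance marks about 1 in 20 such groups.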

How the results depend on the processing

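Klf3, Klf6 and Klf12 were called higher under all 10 alternatives that kept the 8 libraries, with log2 fold changes of 0.67 to 0.90, 0.56 to 0.69 and 0.60 to 0.72. With a replicate block the count of higher members was again 3. The replicate numbers share no stated origin. Between same-numbered libraries, deviations from the group mean had correlations of 0.13, -0.096, -0.026 and 0.159, so these libraries were not read as pairs. Over all genes the block moved the calls from 1738 lower and 1957 higher to 1835 and 2085. Within replicates 1 and 2 alone 1 member was higher (Klf12), and within replicates 3 and 4 alone 2 were (Klf6 and Klf12); with 2 libraries a genotype, calls over all genes also fell, to 724 and 566 lower and 791 and 845 higher. Leaving out a library gave 2 to 3 higher members, and 0 to 1 past the fold limit of 2 as well (Klf3 at 1.01 without Med23-/- replicate 2). The sign changed for 3 members that were not called. Klf13 was 0.09 in replicates 1 and 2 alone. Klf15 was -0.09 under quantile normalization, -0.05 in replicates 3 and 4 alone and -0.07 to 0.08 with a library left out. Klf16 was -0.23 to 0.04 with a library left out. A pseudocount of 0.1 gave 273 lower and 654 higher genes past both limits in place of 216 and 367. Of 216 recomputed list counts, 184 stayed within 1.5 times their value and 32 moved, all 32 on leaving out a library. The unknown depth limits the values under 1 FPKM most.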

Other observations

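As a share of the summed FPKM of all 17 Klf genes, the CtBP-binding branch took 22.9 to 26.6% in the Med23+/+ libraries and 31.8 to 37.9% in the Med23-/- libraries, and the Sin3-binding branch took 45.9 to 47.7% and 36.8 to 41.2%. The activating branch took 23.2% and 22.5% on average. Shares of a sum move against each other by construction, so the lower share of one branch is not independent of the higher share of another. The ratio of Klf3 to Klf8 FPKM was 2.29, 1.52, 1.91 and 2.30 in Med23+/+ replicates 1 to 4 and 8.59, 5.32, 6.51 and 13.7 in Med23-/- replicates 1 to 4. The shares and the ratio were chosen after the values were seen and were not tested.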
